A study of Mus musculus with 12 samples.

Results

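The 7 genes described here, *Tcf7*, *Lef1*, *Bach2*, *Satb1*, *Foxp1*, *Myb* and *Klf3*, encode transcription factors that are characteristic of naive T cells. They were chosen by name out of the 24439 gene names in each table, and their level was followed through 12 libraries in 4 groups of 3. All 7 were found, all 7 passed the filter on low values that left 12442 genes (over 1 TPM in at least 1 library), and none was listed at 0 in any library. In the resting T blasts, 6 of the 7 were higher after IL-2 had been taken away for 16 h than in cells kept in IL-2. Of all genes tested, 22.3% were. The seventh, *Myb*, varied too much between libraries to tell. After 2 h of stimulation without IL-2 all 7 were lower than in the resting cells without IL-2, as were 41.1% of all genes. Of the 7, 3 (*Klf3*, *Tcf7* and *Lef1*) stayed so with the scaling under which fewest passed. Both results use 2 libraries placed against their labels. Without these libraries 6 of the 7 still passed at rest and 5 after stimulation without IL-2. By the labels none of the 7 passed.

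A naive T cell is held in its resting state by transcription factors of this kind, and an activated cell turns many of them down as it grows, divides and takes on effector functions. TCF-1 (encoded by *Tcf7*) and LEF-1 are HMG box proteins that bind the same DNA motif, either with Groucho/TLE co-repressors or with β-catenin. BACH2 is a repressor that pairs with small MAF proteins on sites shared with AP-1, SATB1 is an organiser of chromatin folding in T cells, FOXP1 is a forkhead factor needed for naive T cell quiescence, MYB is a factor of progenitors and of memory-like T cells, and KLF3 is a Krüppel-like repressor that binds CACCC boxes. IL-2 signals through STAT5 and drives the growth and division of activated T cells.

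All cultures came from spleen CD4 T cells of C57BL/6 C42 mice, which carry a human IL3/CSF2 transgene, and so every group shares this background. The cells were purified on CD4 microbeads, activated with concanavalin A (ConA, 2 µg/ml, 40 h) and expanded in IL-2 (50 U/ml), for 30 h by the methods and for about 2 days by the labels. T blasts kept in IL-2 are called TB IL-2, and those from which it was removed for 16 h are TB IL-2nil. TB+ IL-2 and TB+ IL-2nil are the same cells after 2 h with 20 ng/ml of the phorbol ester PMA and 2 µM calcium ionophore (PMA/I). PMA and ionophore together mimic a signal through the T cell receptor. T blasts are called resting here where they had no PMA/I. The word does not mean that they had stopped dividing, and the study describes T blasts in IL-2 as actively dividing. Animal age is not given in the sources used here, and neither the labels nor the methods say that the 3 replicates are separate animals, so the P-values below measure the spread between these samples only.

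The libraries labelled TB IL-2nil replicate 3 and TB+ IL-2 replicate 3 were placed in each other's group. The study's own table of changed genes lists values for each library. They were compared with the TPM of the deposited libraries after quantile normalization, which is an alternative scaling here. The methods of the study name the upper quartile instead. Each of the 12 columns of that table was met by 1 deposited library in 100% of 1391 genes (tolerance 0.1%). For 10 columns this was the library of the same label. For these 2 columns it was the library of the other label, and the library of the same label met 0.0719% of the values. The PMA/I response genes of a marker list summed to 13.2 to 124 TPM in the 6 resting libraries placed in this way and to at least 7559 TPM in the 6 stimulated ones. The results of the 7 genes are also given by label and without these libraries, as are the counts of the lists, while the group orders and the similar genes are given with all 12 libraries. Depth, read from the steps between low values, differed 3.05-fold between libraries and was lowest in TB IL-2nil replicate 2, whose value lay between those of the other 2 replicates for all 7 genes. T cell markers summed to 1670 to 2364 TPM across the libraries, and markers of NK cells to at most 0.303 TPM. Markers of CD8 T cells summed to 6.91 to 31.9 TPM in TB IL-2, 14.0 to 22.1 TPM in TB IL-2nil, 7.27 to 29.5 TPM in TB+ IL-2 and 8.64 to 22.0 TPM in TB+ IL-2nil. Replicate 1 was the highest in each group. Myeloid markers summed to at most 4.88 TPM, and those of progenitors or thymocytes to at most 4.95 TPM. The part of such cells in the results was not tested.

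On mm9, the authors' build, the GENCODE M1 gene models place *Tcf7* on the minus strand of chromosome 11 (52065873 to 52096681), *Lef1* on the plus strand of chromosome 3 (130813389 to 130927274) and *Bach2* on the plus strand of chromosome 4 (32325779 to 32673083). *Satb1* lies on the minus strand of chromosome 17 (51875512 to 51972615), *Foxp1* on the minus strand of chromosome 6 (98875332 to 99216526), *Myb* on the minus strand of chromosome 10 (20844736 to 20880790) and *Klf3* on the plus strand of chromosome 5 (65194628 to 65221368). The libraries measure transcripts over each whole gene and do not show which start was used. The 250 bases before each gene's start were searched on both strands for 6 short motifs, with the same search in 22375 protein coding genes as the background. The KLF box CACCC was found in 6 of the 7 windows, all but *Foxp1*, and in 52.3% of all windows. The TCF/LEF motif CTTTGA was found before *Tcf7* and *Foxp1*, and in 13.4% of all windows. The NFAT core GGAAA stood in the windows of *Satb1* and *Myb*, against 55.5% of all windows. The FOXO motif GTAAACA, the STAT motif TTCNNNGAA and the AP-1 motif TGANTCA were in none of the 7, against 2.74%, 6.83% and 6% of all windows. A match is a description of the letters and says nothing about binding.

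The far 100 bases of the windows of *Tcf7* and *Foxp1* are shown because they hold the motif that TCF-1 and LEF-1 read, before the gene of TCF-1 itself in the first case. The whole window of *Klf3* is shown because it holds 4 copies of the box that KLF3 reads. Capitals mark the motif matches on either strand, and each sequence runs 5′ to 3′ on the strand of its gene. They are on mm9 at chr11:52096832-52096931 (minus strand), chr6:99216677-99216776 (minus strand) and chr5:65194378-65194627 (plus strand). The window of *Klf3* has a G+C content of 80% and that of *Tcf7* 83.6%, against 44% before *Foxp1* and a median of 54% over all windows.
Tcf7: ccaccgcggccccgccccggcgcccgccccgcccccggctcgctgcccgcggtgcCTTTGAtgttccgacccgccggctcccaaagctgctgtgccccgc
Foxp1: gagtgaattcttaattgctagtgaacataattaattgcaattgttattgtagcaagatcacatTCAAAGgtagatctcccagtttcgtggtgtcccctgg
Klf3: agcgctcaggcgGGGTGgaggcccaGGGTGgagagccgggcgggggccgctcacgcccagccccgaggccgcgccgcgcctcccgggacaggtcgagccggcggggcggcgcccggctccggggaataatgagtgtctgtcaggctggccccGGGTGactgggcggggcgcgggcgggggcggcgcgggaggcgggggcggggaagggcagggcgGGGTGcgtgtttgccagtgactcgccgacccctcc

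Levels are given in TPM (a share of all transcripts, corrected for gene length), made here from the deposited FPKM values and scaled to one upper quartile in all libraries. In TB IL-2nil, where all 7 genes had their highest group mean, *Tcf7* was the most abundant at 722 ± 108 TPM (SD, n = 3). *Satb1* followed at 352 ± 33.6 TPM, *Lef1* at 290 ± 41.7 TPM, *Foxp1* at 120 ± 18.6 TPM, *Klf3* at 86.5 ± 24.0 TPM, *Bach2* at 61.7 ± 18.8 TPM and *Myb* at 10.1 ± 7.73 TPM (each SD, n = 3). The range that each gene covered was unequal. The highest group mean was 13.1 times the lowest for *Tcf7*, 12.9 times for *Myb* and 9.87 times for *Klf3*, but 2.74 times for *Foxp1* and 3.25 times for *Satb1*. In 5 of the 7 genes the lowest group mean was in TB+ IL-2. The exceptions were *Foxp1*, lowest in TB IL-2, and *Klf3*, lowest in TB+ IL-2nil, although its TB+ IL-2nil and TB+ IL-2 ranges overlapped.

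The order of the groups differed between genes. *Foxp1* alone had 4 groups that did not overlap, in the order TB IL-2nil, TB+ IL-2nil, TB+ IL-2 and TB IL-2. For *Tcf7*, TB IL-2nil stood apart and the other groups, at 132, 131 and 55.0 TPM on average, each overlapped with the next. For *Lef1* and *Klf3* the resting group with IL-2 came second, and the 2 stimulated groups overlapped below it. For *Bach2* the stimulated group without IL-2 came second, at 28.9 TPM, and TB IL-2 and TB+ IL-2 overlapped at 17.1 and 15.2 TPM. For *Satb1* it came second too, at 208 TPM, but overlapped with TB IL-2 at 176 TPM. No neighbouring groups of *Myb* stood apart.

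**Figure D1:**
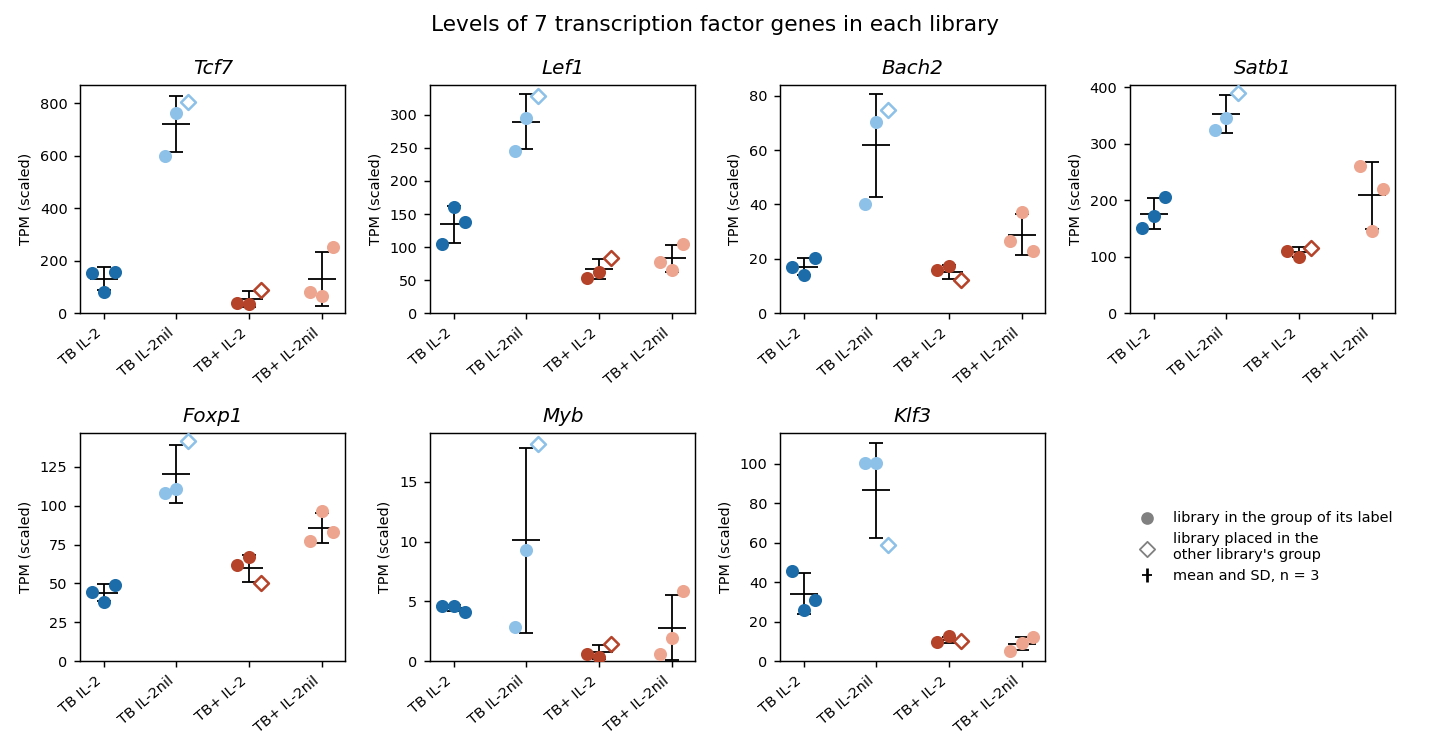
Level of each gene (TPM, scaled to a common upper quartile; linear axes from 0) in the 12 libraries by group, with points for libraries, open diamonds for the 2 libraries placed in each other's group, and bars for the mean and SD (n = 3). TB IL-2nil stands highest for every gene, and for *Myb* its 3 libraries spread from 2.81 to 18.2 TPM.

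The first comparison, TB IL-2 against TB IL-2nil, asks what IL-2 does to the resting blast. *Tcf7* was at 155, 81.0 and 158 TPM in the 3 TB IL-2 libraries and at 599, 761 and 804 TPM in TB IL-2nil. *Lef1*, its partner in naive T cells, was at 105, 161 and 137 TPM with IL-2 and at 245, 295 and 328 TPM without. The groups of neither gene overlapped, and the TB IL-2nil libraries were the higher ones throughout. On the log2(TPM + 1) scale the difference, TB IL-2 minus TB IL-2nil, was -2.50 (SE 0.50) for *Tcf7*, a 5.66-fold lower level in IL-2 (adjusted P = 0.00292, limma with Benjamini-Hochberg correction over all genes). For *Lef1* it was -1.11 (SE 0.24, adjusted P = 0.00404), or 2.16-fold.

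*Bach2* was at 17.0, 14.0 and 20.4 TPM in TB IL-2 and at 40.1, 70.4 and 74.6 TPM in TB IL-2nil, so that IL-2 cultures were lower by 3.37-fold (-1.75 on the log2 scale, SE 0.27, adjusted P = 0.00071). A separate gene name for the transcript of the opposite strand, *Bach2os*, was at 3.46 to 5.40 TPM and 13.6 to 14.8 TPM in the same groups. The library kit marks strand, but the sources used here do not say that the quantification used it. Reads of the pair may therefore not be fully told apart. The GENCODE M1 models of *Tcf7* and *Myb* also overlap genes of the opposite strand (*A630014C17Rik* and *Gm16786*). These are not among the gene names of the deposited data, so the same limit applies to *Tcf7* and *Myb*. *Satb1* was at 151, 172 and 205 TPM with IL-2 and at 323, 345 and 389 TPM without (-1.01, SE 0.21, adjusted P = 0.00397). *Foxp1* was at 44.5, 38.2 and 49.1 TPM with IL-2 and at 108, 111 and 142 TPM without. Its difference of -1.43 had the smallest standard error of the 7 (0.18, adjusted P = 0.000218).

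*Klf3* was at 45.8, 25.6 and 31.0 TPM in TB IL-2 and at 100.4, 100.3 and 58.7 TPM in TB IL-2nil, and differed by -1.31 (SE 0.31, adjusted P = 0.00684). The lowest TB IL-2nil value is that of a library placed there against its label, and it still lay above all 3 TB IL-2 values. *Myb* was at 4.61, 4.59 and 4.13 TPM with IL-2 but at 2.81, 9.31 and 18.2 TPM without. The TB IL-2 values lay inside the TB IL-2nil range, and the difference of -0.74 had a 95% interval from -2.02 to 0.53 (adjusted P = 0.328), so no change in *Myb* was detectable.

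Thus 6 of the 7 genes were lower in IL-2 at an adjusted P under 0.05, where 22.3% of all genes tested were, and none was higher. *Tcf7* and *Bach2* were also more than 3-fold lower, where 2.73% of all genes were. The groups did not overlap for any of these 6 genes, against 30.4% of all genes with every TB IL-2 library below every TB IL-2nil library. The median log2 difference of the 7 was -1.31 and that of all genes -0.13. Each of the 6 passed in all of 13 fits that left out a library or both of the libraries placed against their labels. Without both of these, *Tcf7* differed by -2.42 (adjusted P = 0.0107), *Bach2* by -1.59 (adjusted P = 0.00522), *Foxp1* by -1.31 (adjusted P = 0.00171), *Klf3* by -1.57 (adjusted P = 0.00933), *Lef1* by -1.02 (adjusted P = 0.0166) and *Satb1* by -0.93 (adjusted P = 0.0237). With the libraries taken by their labels none of the 7 passed, with differences from -1.45 for *Tcf7* to 0.25 for *Myb*.

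Other things moved with IL-2 in the same libraries. Markers of dividing cells, 9 of 9 kept, summed to 1860 to 2612 TPM in TB IL-2 and to 223 to 554 TPM in TB IL-2nil. B cell markers, 7 of 8 kept, summed to 6.70 to 11.96 TPM in TB IL-2 and to 26.2 to 32.9 TPM in TB IL-2nil, with *Pax5* at 0.101 to 0.516 TPM and 0.72 to 1.12 TPM. Their part in the result was not tested. In bulk RNA, fewer cells with a transcript and less of it in each cell cannot be told apart.

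**Figure D2:**
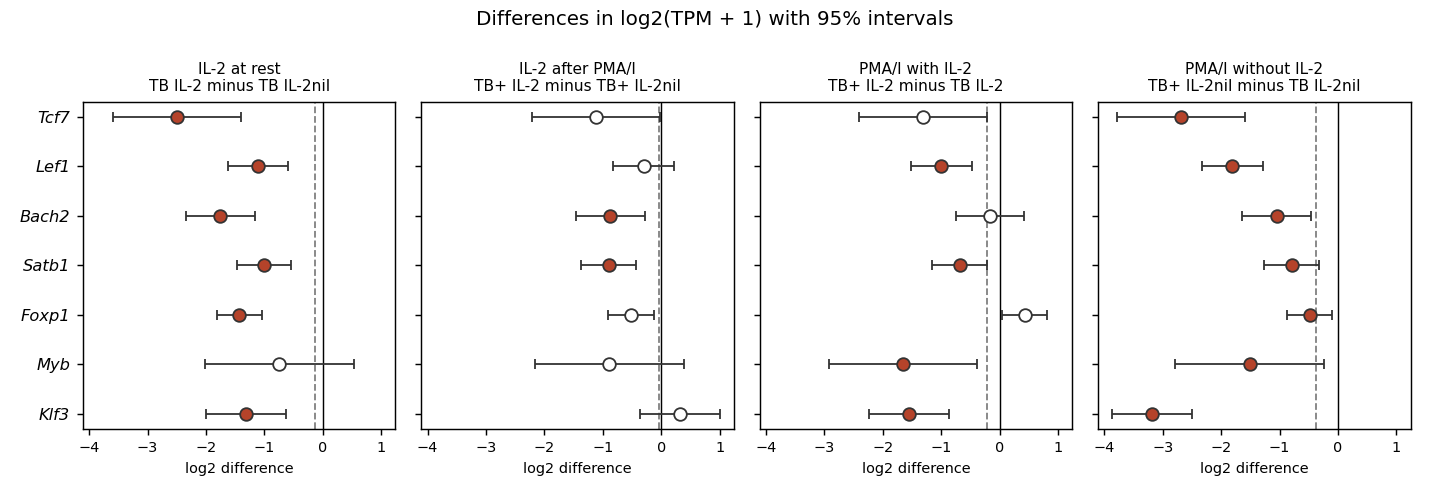
Log2 differences in TPM + 1 for the 7 genes in 4 comparisons, with 95% intervals. Filled points passed an adjusted P under 0.05, the solid line is 0 and the dashed line is the median of all 12442 genes. In TB IL-2 minus TB IL-2nil 6 points are filled and lie at -1.01 or below, and in TB+ IL-2nil minus TB IL-2nil all 7 are filled.

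The partners and relatives of these factors were followed as lists. Of the co-factors of TCF/LEF and the Wnt pathway, 13 of 18 were tested, and 3 were lower in TB IL-2, none higher, with a median of -0.35. Over all genes 22.3% were lower and 17.3% higher, so the share of lower genes in this list was close to that of all genes. The 3 were *Bcl9l*, a β-catenin co-activator (-1.09, adjusted P = 0.0156), *Tle4*, a Groucho co-repressor (-0.995, adjusted P = 0.00357), and *Apc*, a part of the β-catenin destruction complex (-0.64, adjusted P = 0.00526). *Ctnnb1*, the gene of β-catenin itself, was at 117 to 143 TPM with IL-2 and at 111 to 177 TPM without (-0.16, adjusted P = 0.542). Among 6 partners, a paralog and a target of BACH2, *Bach1* alone passed (-1.52, adjusted P = 0.00296), and *Prdm1*, a gene that BACH2 represses, had a difference of -0.46 (adjusted P = 0.253). Of 8 general co-repressors and coactivators, 2 were higher (*Hdac2* by 1.08 and *Hdac1* by 0.77) and 3 were lower, among them *Crebbp* by -0.91 and *Ncor1* by -0.60.

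Paralogs did not move as one with the 7 genes. Of 14 tested, 2 were higher and 2 lower in TB IL-2, with a median of 0.10. Both of the higher ones were relatives of *Myb*. *Mybl2* (B-Myb), a regulator of genes of cell division, was at 36.0, 19.3 and 32.2 TPM with IL-2 and at 2.08, 2.21 and 2.88 TPM without, a difference of 3.12 (SE 0.25, adjusted P = 2.82e-05). *Mybl1* differed by 1.96 (adjusted P = 0.000275) in the same direction. The lower ones were *Klf2*, a Krüppel-like factor of T cell quiescence and homing (-1.16, adjusted P = 0.0114), and *Klf13* (-0.89, adjusted P = 0.00264).

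The surface and homing genes of naive T cells, a list of 11, had 8 lower and 1 higher in TB IL-2, with a median of -1.70. *Il7r*, the IL-7 receptor that maintains naive cells, differed by -3.54 (adjusted P = 0.000405), *Actn1* by -3.06 and *Cd27* by -2.59. The lymph node homing gene *Ccr7* was also lower (-1.70, adjusted P = 0.013). *Igfbp4* went the other way, by 2.50 (adjusted P = 0.0063). Of 11 effector T cell transcription factors, *Irf8* (2.38, adjusted P = 0.00386) and *Eomes* (0.94, adjusted P = 0.0375) were higher, none was lower and 9 did not pass, with a median of 0.44. With the 2 libraries placed against their labels left out, the counts at rest were 3 lower for the TCF/LEF co-factors, 1 lower around BACH2, 2 higher and 1 lower for the co-repressors and coactivators, 2 and 2 for the paralogs, 1 higher and 7 lower for the surface genes and 4 higher for the effector factors. Of the genes named here only *Ncor1* no longer passed (-0.55, adjusted P = 0.0565). By the labels no gene of these lists passed.

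**Figure D3:**
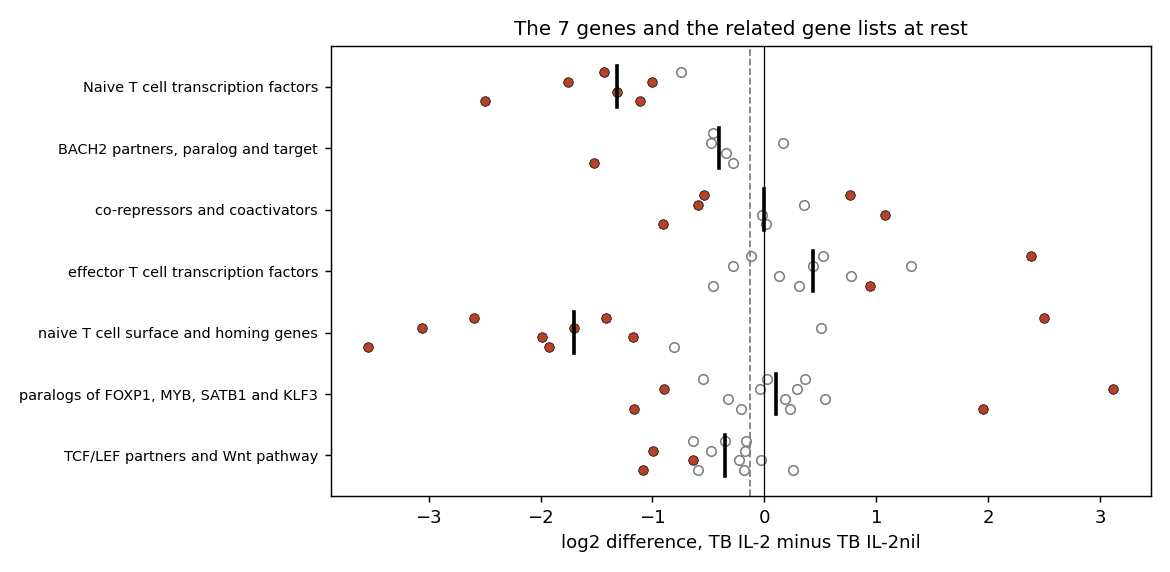
Log2 difference of TB IL-2 minus TB IL-2nil (x axis) for the 7 genes (top row) and for each gene tested in 6 related lists. Filled points passed an adjusted P under 0.05, thick bars are the median of a list and the dashed line is the median of all genes (-0.13). The surface genes have the lowest median, at -1.70, and the 2 highest points of the paralogs are *Mybl2* and *Mybl1*.

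The second comparison, TB+ IL-2 against TB IL-2, asks what 2 h of PMA/I do to cells that have IL-2. *Klf3* was at 9.47, 12.5 and 10.2 TPM after PMA/I, below all 3 TB IL-2 libraries, and differed by -1.55 (SE 0.31, adjusted P = 0.00305). *Lef1* was at 54.1, 62.9 and 84.2 TPM, also below all 3 (-0.996, SE 0.24, adjusted P = 0.00779). *Satb1* was at 110.0, 99.6 and 116 TPM (-0.68, SE 0.21, adjusted P = 0.0281). *Myb* was close to the floor after PMA/I, at 0.607, 0.315 and 1.43 TPM, and its difference of -1.66 (SE 0.58, adjusted P = 0.0456) was lost in 7 of the 13 fits that left out libraries (adjusted P 0.0202 to 0.140).

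*Tcf7* was at 40.1, 34.3 and 90.4 TPM, and its highest library overlapped the lowest of TB IL-2. The difference of -1.31 (SE 0.50) did not pass (adjusted P = 0.0615), but did with the replicate number as a block (adjusted P = 0.0111) and without both of the libraries placed against their labels (-1.73, adjusted P = 0.0369). *Bach2* was at 16.0, 17.4 and 12.2 TPM, with a difference of -0.16 and a 95% interval from -0.75 to 0.43, and its sign turned under 2 other scalings. *Foxp1* was the one gene whose estimate rose, at 61.8, 67.2 and 50.2 TPM, all above the TB IL-2 libraries. Its difference of 0.43 (95% interval from 0.05 to 0.82) did not pass (adjusted P = 0.0782).

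In this comparison 4 of the 7 genes passed as lower, against 23.3% of all genes, and none as higher, against 11.8%. The groups did not overlap for the 4 genes that were lower (35.1% of all genes) and, upwards, for *Foxp1* (16.6% of all genes). The median of the 7 was -0.996 and that of all genes -0.22. The all-gene median moved to -0.03 with the median ratio scaling, and the number of all genes that were higher and lower, 1471 and 2901, became 2075 and 1822. Under that scaling *Lef1* (-0.75, adjusted P = 0.033) and *Klf3* (-1.31, adjusted P = 0.00691) still passed, *Foxp1* passed as higher (0.68, adjusted P = 0.0141), and *Satb1* (-0.44, adjusted P = 0.147) and *Myb* (-1.48, adjusted P = 0.0716) did not. Without both of the libraries placed against their labels, *Klf3* (-1.52, adjusted P = 0.00969), *Lef1* (-1.17, adjusted P = 0.00901) and *Myb* (-1.90, adjusted P = 0.0338) passed as lower and *Foxp1* as higher (0.55, adjusted P = 0.0417), while *Satb1* did not pass (-0.73, adjusted P = 0.0576). Leaving out 1 of TB IL-2 replicates 2 and 3 or of TB+ IL-2 replicates 1 and 2 also took *Satb1* over the threshold. By the labels none of the 7 passed, with differences from -0.75 for *Klf3* to 0.92 for *Foxp1*. B cell markers summed to 6.70 to 11.96 TPM in TB IL-2 and to 2.74 to 4.59 TPM in TB+ IL-2, and their part in the result was not tested.

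The third comparison puts TB+ IL-2nil against TB IL-2nil, the same stimulus in cells that had lost IL-2. *Klf3* fell from the TB IL-2nil level to 5.26, 8.96 and 12.05 TPM, which is -3.19 on the log2 scale (SE 0.31, adjusted P = 1.09e-05) or 9.10-fold. *Tcf7* was at 81.9, 64.6 and 251 TPM, a difference of -2.69 (SE 0.50, adjusted P = 0.000755) or 6.46-fold. *Lef1* was at 78.2, 65.7 and 105 TPM, a difference of -1.81 (SE 0.24, adjusted P = 7.28e-05) or 3.50-fold. None of the 3 overlapped with its resting group, although the third replicate of *Tcf7* stood far above the other two.

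*Bach2* was at 26.7, 37.4 and 22.7 TPM after PMA/I without IL-2, a difference of -1.05 (SE 0.27, adjusted P = 0.0057). *Satb1* was at 261, 145 and 220 TPM (-0.79, SE 0.21, adjusted P = 0.00744) and *Foxp1* at 77.4, 96.6 and 83.1 TPM (-0.48, SE 0.18, adjusted P = 0.0336). Each of these lay below the TB IL-2nil libraries. *Myb* was at 0.623, 1.93 and 5.86 TPM and overlapped with its resting group, with a difference of -1.51 (SE 0.58, adjusted P = 0.0407) that did not pass in 10 of the 13 fits that left out libraries, among them that without both of the libraries placed against their labels (-0.97, adjusted P = 0.178).

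All 7 genes passed as lower here, where 41.1% of all genes did, and 3 of them were more than 3-fold lower, where 10.7% of all genes were. The groups did not overlap for 6 of them, against 42.3% of all genes. The median of the 7 was -1.51 and that of all genes -0.38. This comparison leaned most on the scaling: the all-gene median was -0.08 with the median ratio, -0.14 with quantiles and -0.78 with TPM alone. The calls of all genes, 2501 higher and 5113 lower, became 3494 and 3519 with the median ratio, 2910 and 3787 with quantiles and 1302 and 6108 with TPM alone. Under the median ratio scaling, *Klf3* (-2.80), *Tcf7* (-2.29) and *Lef1* (-1.41) passed, and *Bach2* (-0.65, adjusted P = 0.064), *Satb1* (-0.39, adjusted P = 0.141), *Foxp1* (-0.08, adjusted P = 0.709) and *Myb* (-1.20, adjusted P = 0.0951) did not. The RNAs *Rpph1* and *Rmrp* held 30.7% of all TPM in TB+ IL-2nil replicate 1 and 8.13% to 15.3% in the other libraries. Their part in the result was not tested. Without that library *Klf3*, *Tcf7*, *Lef1*, *Bach2* and *Satb1* passed, while *Foxp1* (-0.41, adjusted P = 0.0978) and *Myb* (-1.02, adjusted P = 0.168) did not. Without both of the libraries placed against their labels 5 passed, with *Klf3* at -3.44, *Tcf7* at -2.61, *Lef1* at -1.71, *Bach2* at -0.88 and *Satb1* at -0.72, and *Foxp1* did not (-0.36, adjusted P = 0.113). *Foxp1* was lost in 4 of the 13 fits that left out libraries, the other two being those without TB+ IL-2nil replicate 3 (-0.46, adjusted P = 0.0682) and without the library labelled TB+ IL-2 replicate 3 (-0.36, adjusted P = 0.124). By the labels none passed, with differences from -2.38 for *Klf3* to 0.013 for *Foxp1*.

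The same lists were counted after PMA/I. Over all genes, 11.8% were higher and 23.3% lower with IL-2, and 20.1% higher and 41.1% lower without. Without IL-2, 8 of the 11 surface and homing genes were lower and none higher, with *Ccr7* at -3.86 (adjusted P = 3.75e-05) and *Il7r* at -1.71 (adjusted P = 0.0103). With IL-2, 3 of the 11 were lower, of which *Ccr7* was one (-3.28, adjusted P = 0.000371). Of 14 paralogs, 4 were higher and 3 lower with IL-2, and 7 were higher and 2 lower without. Among the Krüppel-like relatives of *Klf3*, *Klf9* (2.24 with IL-2 and 3.05 without), *Klf4* (2.05 and 3.98), *Klf16* (1.36 and 2.66) and *Klf13* (1.04 and 0.74) were higher in both, and the first 3 are named after their values were seen. *Klf2* went the other way, from 71.2 to 99.5 TPM down to 14.5 to 31.4 TPM with IL-2 (-2.02, adjusted P = 0.00061) and from 148 to 241 TPM down to 13.4 to 22.9 TPM without (-3.48, adjusted P = 5.95e-06). Of the 6 genes around BACH2, 4 were higher after PMA/I with and without IL-2, and none was lower. They were *Bach1* and the small MAF genes *Maff*, *Mafg* and *Mafk*, and the 3 MAF genes are named here after their values were seen. With IL-2 they differed by 2.13 (*Bach1*), 4.11 (*Maff*), 1.42 (*Mafg*) and 1.83 (*Mafk*). *Prdm1* did not pass in either (0.81, adjusted P = 0.0624, with IL-2 and 0.69, adjusted P = 0.0706, without). Of the 11 effector factors, 6 were higher with IL-2 and 7 without, none was lower, and the medians were 1.17 and 2.40. In the list of TCF/LEF co-factors, 3 of 13 were lower and none higher with IL-2, and 5 were lower and 2 higher without. The 2 higher ones, named after their values were seen, were the co-repressor genes *Tle1* (1.67, adjusted P = 0.0148) and *Tle3* (0.75, adjusted P = 0.0288). *Bcl9l* was lower in both (-2.36, adjusted P = 0.000229, and -3.44, adjusted P = 6.23e-06). When the 2 libraries placed against their labels were left out, the counts of the surface genes, of the genes around BACH2 and of the paralogs were the numbers given above, those of the co-factors were 1 higher and 3 lower with IL-2 and 1 higher and 5 lower without, and those of the effector factors 6 higher and 1 lower with IL-2 and 7 higher without. By the labels no gene of these lists passed with IL-2, and 2 were higher (1 paralog and 1 effector factor) and 1 surface gene lower without.

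The fourth comparison, TB+ IL-2 against TB+ IL-2nil, sets stimulated cells kept in IL-2 against stimulated cells from which added IL-2 had been removed. RNA levels do not show whether IL-2 signalling was absent in TB+ IL-2nil. The *Il2* transcript was at 3539 to 7657 TPM in TB+ IL-2 and at 4116 to 8949 TPM in TB+ IL-2nil. Markers of the IL-2 response, 4 of 4 kept, summed to 1884 to 2537 TPM and to 2494 to 3700 TPM. They did not move as one. The means of *Pim1* (964 against 1700 TPM) and *Cish* (294 against 538 TPM) were lower in TB+ IL-2 than in TB+ IL-2nil. Those of *Il2ra* (761 against 607 TPM) and *Socs2* (115 against 53.5 TPM) were higher. Their part in the result was not tested. *Satb1* was lower with IL-2 in every library, at 99.6 to 116 TPM against 145 to 261 TPM, which is -0.90 on the log2 scale (SE 0.21, adjusted P = 0.0133) or 1.86-fold. *Bach2* was lower in every library too, at 12.2 to 17.4 TPM against 22.7 to 37.4 TPM (-0.87, SE 0.27, adjusted P = 0.0403). The call of *Bach2* held in 6 of the 13 fits that left out libraries (adjusted P 0.0203 to 0.149) and in 4 of 8 fits with other processing, and that of *Satb1* in 11 and 6. *Foxp1* did not overlap between the groups either, with a difference of -0.52 (SE 0.18) that missed the threshold (adjusted P = 0.0579) and passed with the replicate block (adjusted P = 0.0485).

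*Tcf7* overlapped between the groups, with a difference of -1.12 (95% interval from -2.22 to -0.03) that did not pass (adjusted P = 0.134) and did with the replicate block (adjusted P = 0.0293). *Lef1* differed by -0.30 (95% interval from -0.82 to 0.22), *Myb* by -0.89 (-2.16 to 0.39) and *Klf3* by 0.32 (-0.361 to 0.9997). For these 3 no difference was detectable.

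So 2 of the 7 genes passed as lower, where 8.4% of all genes did, and 4 with the replicate block, where 15.6% of all genes were lower. The 3 genes whose groups did not overlap stand against 18.3% of all genes. The median of the 7 was -0.87 and that of all genes -0.04, which became 0.23 with TPM alone, where 1428 genes were higher and 58 lower in place of 1599 and 1045. No member passed without TB+ IL-2nil replicate 1, where *Satb1* differed by -0.72 (adjusted P = 0.0518) and *Bach2* by -0.91 (adjusted P = 0.0865). None passed without both of the libraries placed against their labels (*Satb1* -0.95, adjusted P = 0.0507, and *Bach2* -0.73, adjusted P = 0.149), or by the labels (*Satb1* -0.32 and *Bach2* -0.03). B cell markers summed to 2.74 to 4.59 TPM in TB+ IL-2 and to 7.14 to 15.4 TPM in TB+ IL-2nil, and markers of dividing cells to 1260 to 1904 TPM and 388 to 453 TPM. Their part in the result was not tested. Of the 11 naive surface genes, 4 were lower with IL-2 after PMA/I and 2 higher, against 8.4% and 12.9% of all genes. *Il7r* (-1.54, adjusted P = 0.0452), *Cd27* (-1.94, adjusted P = 0.00269) and *Actn1* (-2.49, adjusted P = 0.000116) were among the lower ones, as at rest. The higher ones were *Igfbp4* (2.89, adjusted P = 0.00596) and *Treml2* (1.94, adjusted P = 0.000234), the latter named after its values were seen. Without both of the libraries placed against their labels 2 were lower and 2 higher, and *Il7r* did not pass (-1.45, adjusted P = 0.139). By the labels 1 was higher and none lower.

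Whether PMA/I acted differently with and without IL-2 was tested as an interaction, the PMA/I difference with IL-2 minus that without. None of the 7 genes passed, where 4.23% of all genes did, although at an unadjusted P under 0.05 there were 4 (*Klf3*, *Foxp1*, *Lef1* and *Bach2*), where 23.1% of all genes were. The estimates were 1.63 for *Klf3* (SE 0.44, adjusted P = 0.0604), 0.91 for *Foxp1* (SE 0.25, adjusted P = 0.0638), 0.81 for *Lef1* (adjusted P = 0.176) and 0.88 for *Bach2* (adjusted P = 0.193). With the replicate block *Foxp1* passed (adjusted P = 0.0462), and *Klf3* did without TB IL-2 replicate 1 (1.86, adjusted P = 0.0405) and without TB+ IL-2nil replicate 3 (1.87, adjusted P = 0.0285). Without both of the libraries placed against their labels none passed, with *Klf3* at 1.92 (adjusted P = 0.1004) and *Foxp1* at 0.91 (adjusted P = 0.117). The estimate of *Satb1* was close to 0, at 0.11, with a 95% interval from -0.55 to 0.77. That of *Tcf7* was 1.38 with an interval from -0.17 to 2.93 (adjusted P = 0.268). Sums of this kind share their groups with the 4 comparisons above and are no separate evidence.

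**Figure D4:**
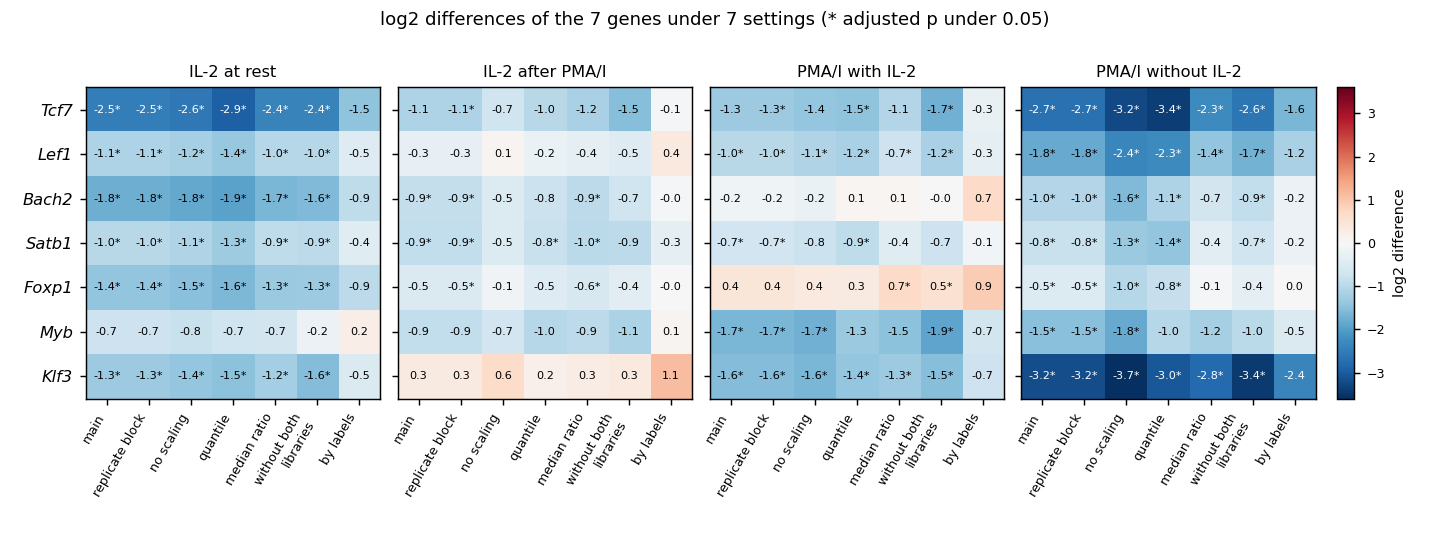
Log2 differences of the 7 genes (rows) in 4 comparisons under 7 settings (columns), coloured from blue (lower) to red (higher), with an asterisk for an adjusted P under 0.05. The 6 calls of TB IL-2 against TB IL-2nil hold in every column but the last, in which libraries are taken by their labels, and the median ratio column has 3 calls in TB+ IL-2nil against TB IL-2nil.

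Each gene's own pattern over the 12 libraries was compared with that of 8798 genes with a mean of at least 5 TPM, by Pearson correlation of log2(TPM + 1). The closest to *Tcf7* were *Stk11ip* (r = 0.990), *Mgea5* (0.989) and *Spata6* (0.988), and to *Lef1* *Prkcq* (0.989), *Senp7* (0.983) and *Itch* (0.981). For *Satb1* they were *Sp4* (0.980), *Zfp317* (0.978) and *Mon2* (0.974), and for *Klf3* *Mat2b* (0.989), *Zfp260* (0.988) and *Tspyl4* (0.986). *Bach2* had looser neighbours, with *Magef1* (0.965), *Rsf1* (0.944) and *Klhl15* (0.942), as had *Foxp1*, with *Crim1* (0.948), *Ikzf3* (0.943) and *Fam117b* (0.939), and *Myb*, with *Rasgrp4* (0.958), *Ccdc6* (0.949) and *Ndrg3* (0.944). None of the 7 was among the 3 nearest of another. The values share their libraries and groups, and the correlations only describe these 12 libraries.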

How the data were processed

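RNA-Seq was done on 12 cultures. The deposited values are FPKM for 24439 gene names per library, which the authors made with Trimmomatic 0.32, HISAT2 2.1.0 (mm9) and StringTie 1.3.3 on RefSeq models. The methods name TPM, but a library sums to 193815 to 420487, so the column header was followed. As they hold no counts, intervals for counting error were not computed, and genes that share reads with near copies cannot be checked. Libraries were rescaled to 1000000 TPM, genes never above 1 TPM were dropped, and 75th percentiles were set equal. A linear model of log2(TPM + 1), a scale that understates changes of low genes, was fitted over the 4 groups (8 residual degrees of freedom) in R 4.3.3 with limma 3.58.1 and Benjamini-Hochberg correction over 12442 genes. The test was checked on simulated data with independent libraries and a small share of genes shifted in TB IL-2. That check does not cover the choice of scaling or a deviation shared by same-numbered libraries. Python 3.11.15, numpy 2.4.6 and pandas 2.3.3 did the rest.

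The 7 genes, the lists and the placement of the 2 libraries were chosen with earlier results of these data known. All 7 are described. From each list at most 4 genes with the largest difference between TB IL-2 and TB IL-2nil among those that passed were named, with *Prdm1*, *Ctnnb1*, *Klf2*, *Il7r* and *Ccr7* whatever their values (some genes of the lists are not reported here), and for each of the 7 the 3 most similar genes. Replicate numbers come from the labels, and what libraries of 1 number share is not stated. In the placed grouping same-numbered libraries deviated together from their group means, with 18 of 18 correlations over 0.1 (0.101 to 0.531), so the replicate block was fitted as the alternative to the unblocked design (the methods name limma and no block).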

Additional observations from a re-analysis of the deposited data

Results flagged for a closer look

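*Foxp1* was higher in every TB+ IL-2 library than in any TB IL-2 library, as were 16.6% of all genes. It was lower in every TB+ IL-2nil library than in any TB IL-2nil library, as were 42.3% of all genes. The PMA/I difference thus had opposite signs with and without IL-2, but that with IL-2 did not pass (limma, adjusted P = 0.0782). Without IL-2 it was -0.08 with the median ratio scaling (limma, adjusted P = 0.709). By the labels both differences were positive (0.92 and 0.013). The PMA/I difference with IL-2 minus that without gave an interaction of 0.91 on the log2 scale (limma, adjusted P = 0.0638). This interaction did not pass, and it ranged from 0.76 to 1.38 over the alternatives. In the lists around the 7 genes, 2 genes passed the interaction test and are named for it after their values were seen. *Irf8*, an interferon regulatory factor, had an interaction of -3.21 (adjusted P = 0.0336), and *Treml2* one of 1.44 (adjusted P = 0.0277). Without both of the libraries placed against their labels neither passed (*Irf8* -2.85, adjusted P = 0.125, and *Treml2* 1.39, adjusted P = 0.109).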

How the results depend on the processing

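Of the 7 genes, 6 were lower in TB IL-2 than in TB IL-2nil under every alternative other than taking the libraries by their labels, where 0 passed in this and in each other comparison, of 15, 62, 669, 27 and 0 genes that passed in all (IL-2 at rest, PMA/I with IL-2, PMA/I without IL-2, IL-2 after PMA/I and interaction). The counts of the 7 elsewhere were less stable. For PMA/I with IL-2, 4 became 2 with the median ratio and with no filter on low values, and 2 to 5 when 1 library was left out. For PMA/I without IL-2, 7 became 3 with the median ratio and 5 to 7 with 1 library left out. It became 5 with no filter on low values, with only the groups compared and without both of the libraries placed against their labels. With quantiles and with the pseudocount of 0.1 it became 6. For IL-2 after PMA/I, 2 became 0 with TPM alone, with only the groups compared and without both of the libraries placed against their labels, 1 with quantiles, 4 with the replicate block and 0 to 2 with 1 library left out. For the interaction, 0 became 1 with the trend and robust variance, 2 with quantiles, 1 with the replicate block and 0 to 1 with 1 library left out. Over all genes, TPM alone gave 2650, 2434, 1486 and 1 in place of 4929, 4372, 2644 and 526 (at rest, PMA/I with IL-2, IL-2 after PMA/I, interaction). For IL-2 after PMA/I the fit of only the groups compared gave 1503, the replicate block 4186, leaving out both libraries 1197 and leaving out 1 library 1431 to 2600. For the interaction the pseudocount of 0.1 gave 241, the replicate block 1478, leaving out both libraries 4 and leaving out 1 library 85 to 1314. The direction of a single gene turned in 15 fits, none of them with a pass. By labels these were *Myb* at rest (0.25), *Bach2* for PMA/I with IL-2 (0.68), *Foxp1* for PMA/I without IL-2 (0.013), and *Lef1* (0.35) and *Myb* (0.11) for IL-2 after PMA/I. *Bach2* for PMA/I with IL-2 was 0.071 with the median ratio and 0.056 with quantiles, and *Lef1* for IL-2 after PMA/I 0.091 with TPM alone. The interaction of *Myb* was 0.096 with TPM alone and -0.93 to 0.48 with libraries left out, and that of *Satb1* was -0.045 with the median ratio and -0.13 to 0.29 with libraries left out. The replicate block changed no call of the 7 beyond the 4 given above. The cause of these changes was not tested. No interaction could be fitted on only the groups compared, since it needs all 4. The depth behind a value is not known.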

Other observations

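The libraries of a group differed in *Myb* and in the proliferation gene *Mki67*. In TB IL-2nil, *Myb* was at 2.81, 9.31 and 18.2 TPM in replicates 1, 2 and 3 and *Mki67* at 21.1, 132 and 146 TPM. In TB+ IL-2nil, *Myb* was at 0.623, 1.93 and 5.86 TPM and *Mki67* at 7.53, 46.3 and 74.1 TPM. In both groups replicate 1 was the lowest for both genes. In TB IL-2 *Myb* stayed within 4.13 to 4.61 TPM and *Mki67* was at 267 to 405 TPM, with replicate 3 lowest for *Myb* and highest for *Mki67*. In TB+ IL-2 replicate 2 was the lowest for both, at 0.315 and 99.9 TPM. Of the other dividing cell markers, *Top2a*, *Cdk1*, *Ccnb1*, *Ccna2*, *Aurkb* and *Mcm5* were also lowest in replicate 1 of TB IL-2nil and TB+ IL-2nil. *Mcm2* and *Pcna* were highest there. *Myb* and *Mki67* were chosen after their values were seen.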
